A study of Mus musculus with 8 samples.

Results

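Lifr, Il6st, Il6ra, Osmr, Il11ra1, Stat3 and Socs3 encode receptor chains of the interleukin-6 (IL-6) cytokine family, the transcription factor that these receptors switch on and the inhibitor that switches them off. These 7 of the 31053 genes in the count table were chosen by symbol, through the GRCm38 annotation, and all 7 were found. The group was put together with the difference between KIKO and wild-type (WT) mice already known, so the difference between genotypes in these genes is given below as a description, without a test. RNA-seq had been performed on visceral white adipose tissue (vWAT) of 4 WT and 4 KIKO mice, with 1 library per mouse. All were male C57BL/6 mice of 8 months without treatment, and the WT mice were littermates. KIKO (knock-in knock-out) mice are a model of Friedreich's ataxia that carries its alleles in all tissues. The libraries hold RNA of the whole fat pad, so that fewer cells of a type and less RNA per cell cannot be told apart.

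Cytokines of the IL-6 family first bind a receptor chain of their own and then gather the shared chain gp130, the product of Il6st, into a complex that activates JAK kinases and STAT3. IL-6 and IL-11 use receptor chains that bind the ligand but do not signal, IL6RA and IL11RA1, and signal through gp130 alone. Leukaemia inhibitory factor (LIF) and oncostatin M use a second signalling chain beside gp130, LIFR or OSMR. SOCS3, itself induced by STAT3, binds gp130 and blocks its JAK kinases. In adipose tissue these cytokines are known to act on adipocyte differentiation, lipolysis and inflammation.

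The libraries held 2602189 to 3478539 counts, and levels are given as CPM, read counts relative to library size, scaled by the trimmed mean of M values (TMM). The 8 adipocyte markers summed to 18248 to 22584 CPM in WT and 21164 to 25114 CPM in KIKO, and 5 of 6 markers of the epididymal epithelium were at 0 in all libraries. On the first principal component, with 32.8% of the variance, WT mouse 3 (12.2) lay among the KIKO mice (4.10 to 23.1) and WT mouse 1 (-37.5) farthest from them. Of 11080 genes tested, 75 passed an adjusted p of 0.05 between genotypes, 31 higher and 44 lower in KIKO. This number rose to 654 when WT mouse 3 was left out, and fell to 0 when any of WT mice 2 and 4 and KIKO mouse 4 was.

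Lifr, the signalling receptor chain for LIF, was the member with the largest difference between genotypes. The gene (ENSMUSG00000054263) lies on the plus strand of chromosome 15, at 7090614 to 7197489 of GRCm38. Lifr stood at 170.2, 149.6, 98.1 and 116.5 CPM in WT mice 1 to 4 and at 69.97, 101.9, 69.97 and 70.01 CPM in KIKO mice 1 to 4. KIKO mouse 2 was above WT mouse 3, and the other KIKO mice were below every WT mouse. The log2 fold change was -0.78 ± 0.18 (SE, n = 4 per group), a fitted level in KIKO of 58.1% of that in WT. Across 16 other settings it ranged from -0.93 to -0.58, the latter after correction for transcript length and GC content. The libraries also differed from each other by transcript length. In each library, the log2 level of each gene minus its mean over all libraries was rank-correlated across genes with transcript length. This correlation ran from -0.11 to 0.264 in WT and from -0.215 to -0.0846 in KIKO mice. It compares libraries, and does not say how level went with length within a library. The longest Lifr transcript has 9655 bases. Length and GC content were corrected together, so their separate parts in that value were not tested.

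Osmr, the signalling chain for oncostatin M, was the neighbour of Lifr on chromosome 15 and the other member with a large difference. It lies on the minus strand at 6813577 to 6874969, 215.644 kb from Lifr, with 1 annotated gene (Gm38282) between them. Osmr stood at 17.4, 11.5, 17.4 and 17.1 CPM in WT mice 1 to 4 and at 10.6, 7.59, 10.7 and 11.1 CPM in KIKO mice 1 to 4. All KIKO mice were below all WT mice, although WT mouse 2 was only just above KIKO mouse 4. The log2 fold change was -0.65 ± 0.21 (SE), a fitted level of 63.8% of that in WT, with a range of -0.78 to -0.53 across the other settings. These values rest on 19 to 55 counts per library. At 19 counts the counting error alone is 22.9% of the value, more than the coefficients of variation (SD over mean) between mice of 18.3% in WT and 16.2% in KIKO.

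**Figure D1:**
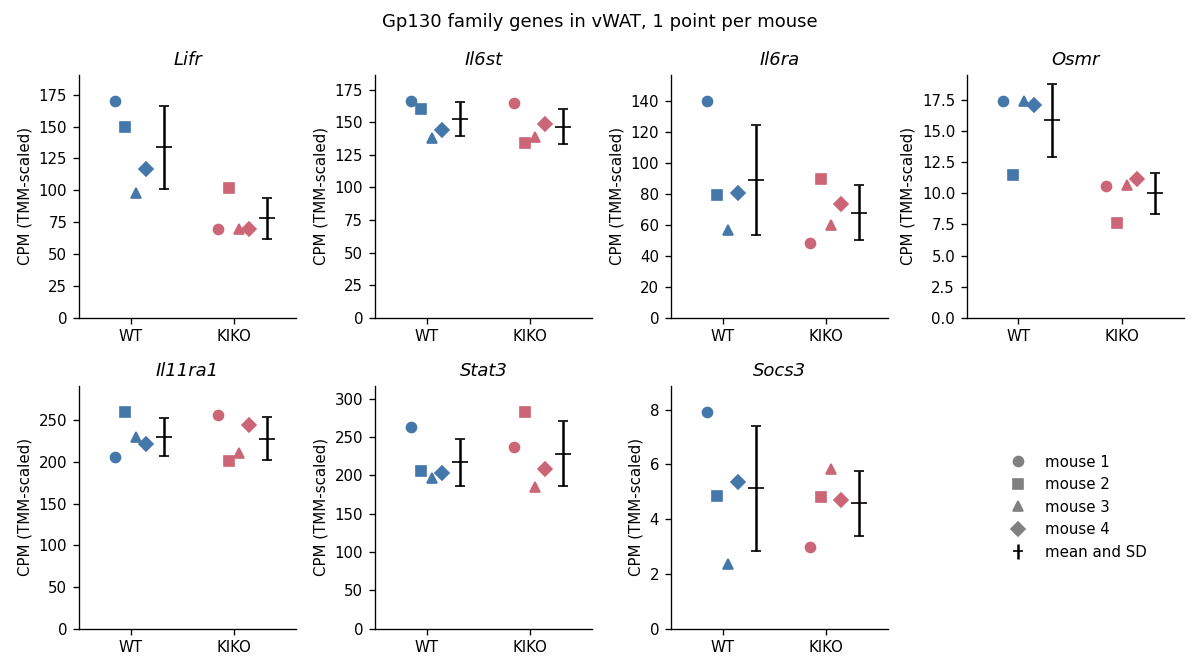
Level of the 7 genes in each mouse, in TMM-scaled CPM on linear axes from 0; marker shapes give the mouse number within its genotype, and bars the mean and SD of 4 mice. Osmr has its KIKO mice (7.59 to 11.1) below its WT mice (11.5 to 17.4), Lifr overlaps through KIKO mouse 2 (101.9) and WT mouse 3 (98.1), and the other 5 genes overlap.

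Il6st, the gp130 chain that all these receptors share, was level between the genotypes in mean. It lies on chromosome 13 at 112464070 to 112510086 (plus strand), and stood at 166.4, 160.5, 138.2 and 144.3 CPM in WT mice 1 to 4 and at 164.7, 133.9, 139.0 and 148.8 CPM in KIKO mice 1 to 4. The groups overlapped over most of their range, with a log2 fold change of -0.06 ± 0.12 (SE). It turned to 0.11 after the correction for transcript length and GC content. Il6st had the smallest spread between mice of the 7 genes, with a coefficient of variation of 8.71% in WT and 9.26% in KIKO.

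The chains that bind a ligand and then rely on gp130 were Il6ra and Il11ra1. Il6ra (chromosome 3, 89864059 to 89913196, minus strand), the IL-6 receptor, stood at 140.1, 79.3, 56.9 and 80.4 CPM in WT mice 1 to 4 and at 48.5, 89.9, 59.9 and 73.2 CPM in KIKO mice 1 to 4. The groups overlapped, with a log2 fold change of -0.40 ± 0.24 (SE), and WT mouse 1 decided its size: without that mouse it was -0.09. Il11ra1 (chromosome 4, 41699989 to 41769474, plus strand), the IL-11 receptor, stood at 206.4, 260.4, 230.3 and 221.7 CPM in WT and at 256.1, 201.4, 210.9 and 244.0 CPM in KIKO. Its log2 fold change was -0.01 ± 0.12 (SE), and its sign turned in 6 of 16 other settings. The locus overlaps 6 other genes, among them Dctn3 on the opposite strand at a mean of 188.2 CPM and Galt on the same strand at 13.9 CPM. How reads in these overlaps were counted is not known. The near-identical copy Il11ra2 was listed at 0 in all libraries, so no reads were assigned to it. Whether reads that fit both copies were given to Il11ra1 or left out is not known.

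Stat3, which carries the signal from the receptor to the nucleus, and Socs3, its target and feedback inhibitor, both lie on chromosome 11. Stat3 (100885098 to 100939540, minus strand) stood at 262.8, 205.9, 196.1 and 203.6 CPM in WT and at 236.6, 283.3, 184.7 and 208.8 CPM in KIKO. The log2 fold change was 0.07 ± 0.15 (SE), and -0.05 without KIKO mouse 2. The last 72 bases of Stat5a on the opposite strand overlap Stat3. Socs3 (117966079 to 117970047, minus strand) stood at 7.93, 4.85, 2.34 and 5.36 CPM in WT and at 2.97, 4.80, 5.83 and 4.69 CPM in KIKO. Its log2 fold change of -0.17 ± 0.36 (SE) was 0.12 without WT mouse 1. Socs3 had 7 to 25 counts per library, so that a difference of this size was not detectable at this depth.

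**Figure D2:**
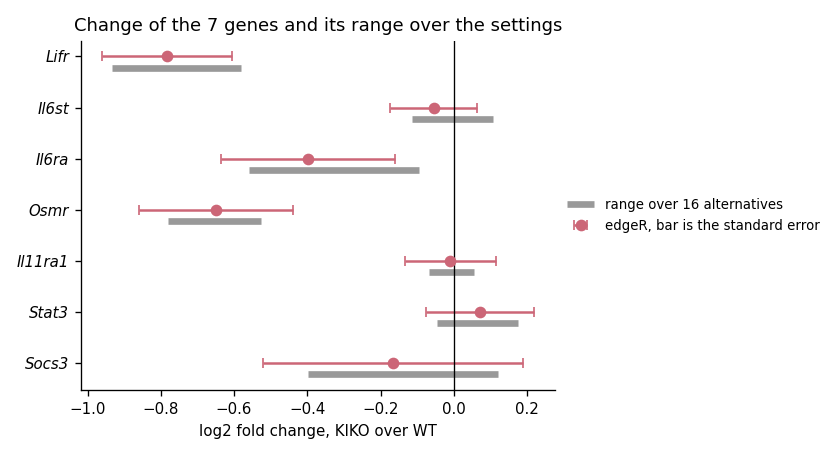
Log2 fold change of KIKO over WT for the 7 genes, as points with the standard error of the edgeR fit, above a grey bar from the lowest to the highest value in 16 other settings. Lifr (-0.93 to -0.58) and Osmr (-0.78 to -0.53) stay well below 0, Il6ra comes close to it (-0.09), and the bars of Il6st, Il11ra1, Stat3 and Socs3 cross it.

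Set beside the whole table, 0 of the 7 genes passed an adjusted p of 0.05 in edgeR, where 0.677% of all tested genes did, 0.28% higher and 0.397% lower in KIKO. At an unadjusted p under 0.05 there were 2 of 7, Lifr and Osmr, both lower in KIKO, against 16.2% of all tested genes in either direction and 9.06% lower. Lifr alone passed the adjusted threshold in 3 of the 16 other settings, with DESeq2 (where 4.56% of genes passed), without a filter on low counts (2.11%) and without WT mouse 3 (5.81%). The groups did not overlap in 1 of 7, Osmr, against 8.45% of all tested genes and 4.56% with all KIKO mice lower. The log2 fold change was below 0 in 6 of 7 genes, against 51.0% of all tested genes, and the median was -0.17, against -0.01 for all tested genes. Since the genes were chosen by this contrast, the counts are a description only.

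The levels of the members were then compared with each other, per kb of the longest annotated transcript. In WT the order was Il11ra1 (88.2 ± 8.74 CPM per kb, SD, n = 4), Stat3 (35.9 ± 5.09), Il6st (17.6 ± 1.53), Lifr (13.8 ± 3.36), Il6ra (10.3 ± 4.13), Osmr (2.89 ± 0.53) and Socs3 (2.01 ± 0.90). On this scale Il11ra1, Stat3 and Il6st did not overlap each other. Lifr, from 10.2 to 17.6 CPM per kb, overlapped both its neighbours in that order, Il6st (15.9 to 19.2) and Il6ra (6.59 to 16.2). Osmr and Socs3 overlapped as well. In KIKO the order of the means was the same, with Lifr at 8.08 ± 1.65 CPM per kb, Il6ra at 7.86 ± 2.06, Osmr at 1.82 ± 0.29 and Socs3 at 1.79 ± 0.46. There Lifr (7.25 to 10.6) no longer reached Il6st (15.4 to 19.0) but still overlapped Il6ra (5.62 to 10.4). In WT, Lifr was in place 4 with the mean transcript length and without length scaling too. The distances between genes rest on the length: without it Il11ra1 (206.4 to 260.4 CPM) and Stat3 (196.1 to 262.8 CPM) overlapped in WT, and in KIKO the mean of Stat3 (228.4 CPM) lay just above that of Il11ra1 (228.1 CPM). It is not known whether the reads of these libraries scale with transcript length.

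**Figure D3:**
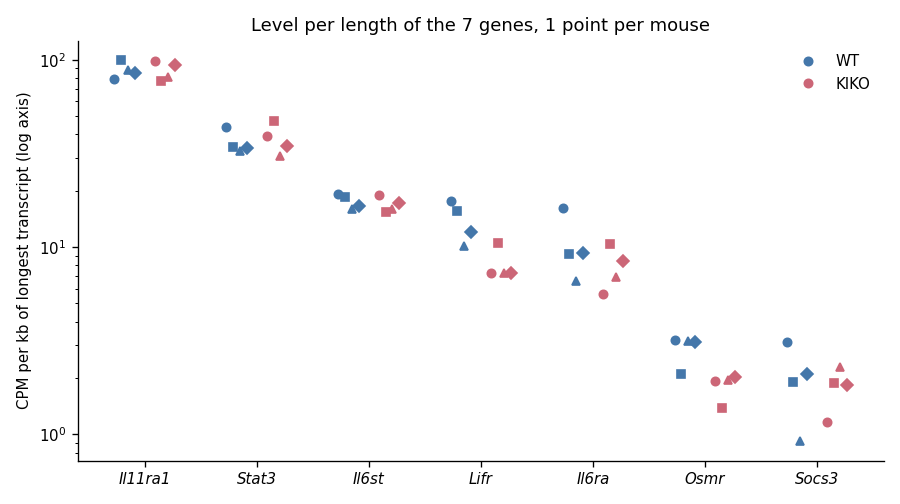
Level of each gene in each mouse in CPM per kb of its longest annotated transcript, on a log axis, with genes ordered by their WT mean and mouse numbers shown by marker shape. Lifr lies beside Il6st in WT (10.2 to 17.6 against 15.9 to 19.2) and below it in KIKO (7.25 to 10.6 against 15.4 to 19.0).

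Since LIFR signals in a pair with gp130, the level of Lifr was also given relative to Il6st in the same mouse, both in CPM per kb. The ratio was 0.919, 0.838, 0.638 and 0.726 in WT mice 1 to 4 and 0.382, 0.684, 0.453 and 0.423 in KIKO mice 1 to 4. KIKO mouse 2 again lay within the WT range and the other KIKO mice below it, with means of 0.780 ± 0.124 and 0.485 ± 0.136 (SD). For Osmr the ratio to Il6st was 0.166 ± 0.0379 in WT and 0.108 ± 0.0149 in KIKO, and WT mouse 2 (0.113) lay below KIKO mice 3 (0.122) and 4 (0.118). The ratios of Il6ra (0.579 ± 0.188 and 0.475 ± 0.157) and of Il11ra1 (5.05 ± 0.64 and 5.18 ± 0.20) overlapped between genotypes. The size of a ratio depends on the transcript lengths used, with WT means of Il11ra1 and Il6st of 88.2 and 17.6 CPM per kb of the longest transcript but 229.7 and 152.4 CPM without length. These lengths are the same in all mice and cancel between genotypes, but a difference between libraries that goes with length does not. With the length and GC correction the log2 fold change moved from -0.06 to 0.11 for Il6st, from -0.01 to -0.04 for Il11ra1 and from -0.78 to -0.58 for Lifr. The ratios were not computed after that correction.

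The genotype difference set aside, the mice of 1 genotype differed from each other in a way that the members partly shared. With the genotype mean of log2(CPM + 1) removed, Pearson's r with Lifr over the 8 mice was 0.844 for Il6ra and 0.785 for Stat3, which stood at places 211 and 374 of 6191 genes with a mean of at least 20 CPM. It was 0.271 for Il6st (place 2093) and -0.376 for Il11ra1 (place 4232). Socs3 (0.654) and Osmr (-0.599) were below that level and were not ranked. The nearest genes were Prkacb, a catalytic subunit of protein kinase A, at 0.992, Adamts12, a secreted metalloprotease, at 0.982, and Arhgap26, a GTPase-activating protein, at 0.975. The 8 points share the library and its depth in each mouse, and the nearest genes were picked out of 6191 for their value, so all of these are descriptions. In WT mice 1 to 4 the rank correlation with transcript length of level relative to the mean over all libraries (0.264, 0.255, -0.11 and 0.112) had the same order as Lifr. In KIKO mice 1 to 4 it was -0.167, -0.158, -0.0846 and -0.215, highest in mouse 3, while Lifr was highest in mouse 2. The part of transcript length in these r values was not tested.

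Among the mice, WT mouse 1 and KIKO mouse 2 stood out in several of these genes. Lifr was above its genotype mean by 0.38 on the log2(CPM + 1) scale in WT mouse 1 and by 0.40 in KIKO mouse 2, and Il6ra and Stat3 were highest in their genotype in the same mice. Prkacb followed with 111.0, 100.5, 82.3 and 90.1 CPM in WT and 77.6, 98.7, 77.4 and 77.6 CPM in KIKO. Osmr ran the other way in KIKO mouse 2, where it was lowest, and in WT mouse 2, where Lifr was above its mean. Without WT mouse 1, r with Lifr was 0.988 for Prkacb and Adamts12, 0.964 for Arhgap26, 0.763 for Il6ra, 0.678 for Stat3, -0.0047 for Il6st and -0.96 for Osmr. KIKO mouse 2 also had the smallest library. Its summed endothelial markers (444 CPM, against 573 to 732 in the other KIKO mice) and mural markers (371 CPM, against 454 to 526) were the lowest in KIKO. Its summed mesothelial markers (497 CPM, against 259 to 403) and B cell markers (32.8 CPM, against 4.86 to 13.2) were the highest. The macrophage, fibroblast and progenitor, mast cell and T cell sums were highest in this mouse too, and the red blood cell sum lowest. The part of these differences in the pattern was not tested.

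**Figure D4:**
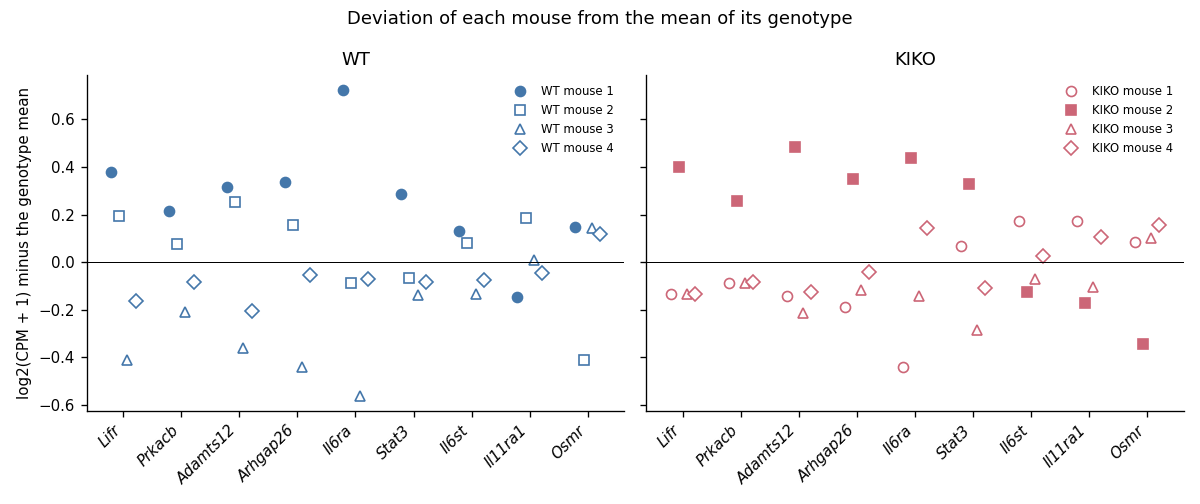
Log2(CPM + 1) of 9 genes in each mouse minus the mean of its genotype, WT on the left and KIKO on the right; WT mouse 1 and KIKO mouse 2 have filled markers. In Lifr, Prkacb, Adamts12, Arhgap26, Il6ra and Stat3 both filled markers lie highest in their genotype, while Osmr is lowest in KIKO mouse 2 and WT mouse 2.

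The sequence before the start of a gene is a place where a STAT factor can act, though not the only one. Whether STAT factors had a part in the levels of Lifr and Osmr was not tested. The promoters of Lifr and Osmr are shown with that of Socs3, a known target of STAT3. They were taken from RefSeq, GRCm38.p6, where Lifr has 2 annotated starts and the others 1. Each covers 250 bases before the start to 50 after it, 5′ to 3′ on the strand of the gene. Capitals mark GC boxes (GGGCGG, or CCGCCC on the other strand) and matches to the STAT motif TTCNNNGAA, a pattern that reads the same on both strands.

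Lifr start 1, chr15:7129322-7129621, plus strand: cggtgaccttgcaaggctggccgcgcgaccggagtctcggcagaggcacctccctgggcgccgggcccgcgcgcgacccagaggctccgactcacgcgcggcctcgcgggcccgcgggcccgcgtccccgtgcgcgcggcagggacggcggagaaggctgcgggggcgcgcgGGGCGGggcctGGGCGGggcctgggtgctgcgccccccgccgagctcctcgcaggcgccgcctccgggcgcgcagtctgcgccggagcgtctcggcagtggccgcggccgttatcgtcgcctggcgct
Lifr start 2, chr15:7140292-7140591, plus strand: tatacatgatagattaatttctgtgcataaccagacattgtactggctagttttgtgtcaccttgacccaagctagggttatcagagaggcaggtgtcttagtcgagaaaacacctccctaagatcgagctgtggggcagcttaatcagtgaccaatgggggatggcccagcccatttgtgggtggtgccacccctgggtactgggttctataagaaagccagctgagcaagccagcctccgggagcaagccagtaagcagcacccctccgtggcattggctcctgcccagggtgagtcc
Osmr, chr15:6874264-6874563, minus strand: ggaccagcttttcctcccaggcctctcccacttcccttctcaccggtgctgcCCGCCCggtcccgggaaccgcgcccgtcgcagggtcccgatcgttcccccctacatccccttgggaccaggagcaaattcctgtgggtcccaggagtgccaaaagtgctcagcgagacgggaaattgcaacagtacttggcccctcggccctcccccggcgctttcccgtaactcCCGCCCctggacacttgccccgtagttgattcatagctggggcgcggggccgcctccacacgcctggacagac
Socs3, chr11:117969317-117969616, minus strand: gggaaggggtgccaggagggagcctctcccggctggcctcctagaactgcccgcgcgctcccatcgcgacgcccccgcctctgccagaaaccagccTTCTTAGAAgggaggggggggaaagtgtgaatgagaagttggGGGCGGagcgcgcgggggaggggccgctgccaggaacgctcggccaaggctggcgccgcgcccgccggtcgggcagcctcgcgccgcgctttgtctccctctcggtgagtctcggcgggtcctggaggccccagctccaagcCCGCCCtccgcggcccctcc

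The pair of Lifr promoters differed in composition. The first had a GC content of 81.3%, higher than 99.3% of the 32817 promoters in the table, and 2 GC boxes, a motif in 35.6% of them. The second had a GC content of 53.3%, close to the median of 52.7%, no GC box, and 2 CCAAT motifs, in 37.4% of promoters on either strand. The Osmr promoter had a GC content of 66.0% and 2 GC boxes. A STAT match occurred in 1 of the 4 windows shown, that of Socs3, and in 8.29% of all promoters. In GENCODE M21 these genes begin upstream of the windows, Lifr at 7090614 and, on the minus strand, Osmr at 6874969 and Socs3 at 117970047. The sequence before those starts is not shown. The counts do not tell which Lifr start was used, and the absence of these letters from a window says nothing of binding elsewhere.

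The cytokines that engage these receptors were close to or under the limit of detection. Of 11 cytokine genes, 1 had enough counts to be tested: Ebi3, a subunit of IL-27 and IL-35, stood at 2.22 to 5.45 CPM in WT and 2.40 to 7.03 CPM in KIKO, with a log2 fold change of 0.27 ± 0.36 (SE, edgeR adjusted p = 0.757). The ligand of LIFR, Lif, the ligand of OSMR, Osm, and Il6 had 1 count each in 1 of 8 libraries, and Ctf2 and Il27 were listed at 0 in all 8. For a gene at 0, the depth allows up to 3 counts per library, 0.879 to 1.20 CPM, so a low local level of these cytokines was not detectable. The 6 other receptors of the class, Cntfr, Il27ra, Il31ra, Il11ra2, Lepr and Csf3r, were all too low to be tested, and together reached 4.35 to 6.66 CPM in WT and 4.21 to 8.79 CPM in KIKO.

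The kinases, STAT factors and adaptors downstream of gp130 were all measured, and none passed the test. Of 16 transducers, 0 were called in either direction against 0.677% of all tested genes. An unadjusted p under 0.05 was found in 1 of 16, against 16.2% of all tested genes. The median log2 fold change was -0.05. The smallest p belonged to Mapk3, the kinase ERK1, at 289.1, 254.1, 211.2 and 182.5 CPM in WT and 192.8, 174.6, 152.6 and 163.4 CPM in KIKO. WT mouse 4 lay below KIKO mouse 1, and the log2 fold change of -0.46 ± 0.15 (SE) had an edgeR adjusted p of 0.144. Stat5a, a related STAT factor, came next in the same fit, at 13.9 to 22.1 CPM in WT and 13.6 to 36.3 CPM in KIKO (log2 fold change 0.46 ± 0.25, edgeR adjusted p = 0.394).

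The negative regulators, SOCS and PIAS proteins, phosphatases and the adaptors Cbl and Sh2b3, gave 0 calls in 15 genes tested of 16, against 0.677% of all tested genes. An unadjusted p under 0.05 was found in 2 of 15, near the 16.2% of all tested genes, and the median log2 fold change was -0.01. Pias4, a SUMO ligase that restrains STAT factors, stood at 21.2, 19.7, 20.1 and 21.8 CPM in WT and at 10.2, 14.0, 15.5 and 16.4 CPM in KIKO, and Socs6 at 22.2 to 23.3 CPM in WT and 27.2 to 34.3 CPM in KIKO. The groups did not overlap in either gene, as in 8.45% of all tested genes, and neither passed edgeR's test over all genes (log2 fold change -0.55 ± 0.18, adjusted p = 0.153, and 0.41 ± 0.14, adjusted p = 0.170). Cish, a SOCS family gene induced by STAT5, ranged from 1.51 to 24.1 CPM within WT and had a log2 fold change of -0.86 ± 0.50 (adjusted p = 0.422), which was -0.16 without WT mouse 1, -1.24 without WT mouse 2 and -0.28 with limma-voom. Among the genes for cleavage and sorting of receptors, which can turn IL6RA into a soluble form, 0 of 5 tested of 6 were called and 1 had an unadjusted p under 0.05, against 0.677% and 16.2% of all tested genes. Gga1 (-0.33 ± 0.14), Rhbdf1 (0.31 ± 0.19) and the protease gene Adam10 (0.22 ± 0.14) had the smallest p, with edgeR adjusted p of 0.257, 0.444 and 0.470.

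The target genes of STAT3 held 2 called genes among 28 tested of 34, against 0.677% of all tested genes, and they moved in opposite directions. The list was chosen with earlier results of these data known, so its counts are a description only. Bcl6, a transcriptional repressor, rose from 20.9, 28.2, 18.4 and 18.4 CPM in WT to 67.3, 34.0, 35.0 and 41.9 CPM in KIKO, with a log2 fold change of 1.05 ± 0.22 (SE, edgeR adjusted p = 0.0453). Cebpd, an early adipogenic and acute-phase transcription factor, fell from 106.8, 55.7, 34.8 and 68.3 CPM to 30.7, 32.0, 23.0 and 29.9 CPM, with a log2 fold change of -1.20 ± 0.26 (SE, adjusted p = 0.0464). In both genes the groups did not overlap, although WT mouse 3 came close to the KIKO mice in Cebpd. Both calls were narrow. They held when WT mouse 3 was left out, but were lost with the removal of any other single mouse, with adjusted p from 0.0513 to 0.169 for Bcl6 and from 0.0616 to 0.177 for Cebpd. Both were also lost with limma-voom, with limma-trend at a pseudocount of 1, with the replicate block and when transcript length and GC content were corrected for (adjusted p from 0.0528 to 0.134 and from 0.0611 to 0.0961), and Cebpd with limma-trend at a pseudocount of 8 (0.0674). The other 26 tested targets did not pass, 9 of 28 had an unadjusted p under 0.05 (5 higher and 4 lower, against 16.2% of all tested genes in either direction), and the median log2 fold change was 0.05. Bcl6 and Cebpd are also known to answer to STAT5 and to glucocorticoids.

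**Figure D5:**
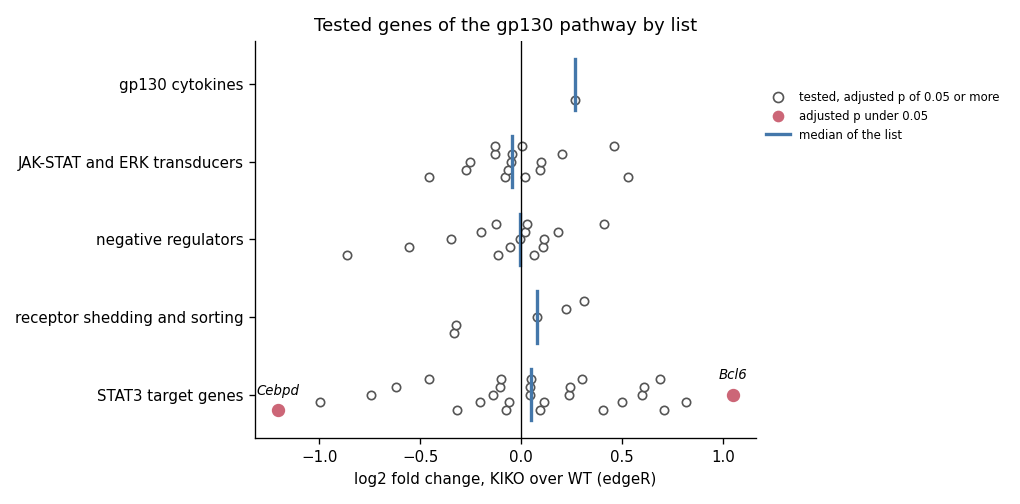
Log2 fold change of KIKO over WT for every tested gene of 5 gp130 pathway lists, 1 circle per gene, filled where the edgeR adjusted p was under 0.05, with the list median as a vertical line; circles are shifted vertically for sight only. Filled circles occur among the STAT3 target genes only, Cebpd at -1.20 and Bcl6 at 1.05, and the medians of the lists with over 1 gene lie between -0.05 and 0.08.

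Some markers of other cell types of the fat pad also passed the test between genotypes, where 0.677% of all tested genes did. The 8 macrophage markers summed to 1577 to 1843 CPM in WT and 1989 to 2369 CPM in KIKO, with 1 called, Lyz2, higher in KIKO. Of these 8, 1 had a log2 fold change below 0. The 8 fibroblast and progenitor markers summed to 2492 to 2840 and 3095 to 3631 CPM, with 1 called, Cd248, also higher. Most of that sum was Dcn, at 1986 to 2255 CPM in WT and 2557 to 3037 CPM in KIKO. In 3 of these 8 markers, Pi16, Col1a1 and Ly6a, the log2 fold change was below 0. The 8 endothelial markers summed to 682 to 877 CPM in WT and 444 to 732 CPM in KIKO, all 8 with a log2 fold change below 0 and 1 called lower, Robo4. Of 6 mural markers (487 to 555 and 371 to 526 CPM) 0 were called, and all 6 had a log2 fold change below 0, with a median of -0.44. Of 8 adipocyte markers 0 were called, and 2 were below 0. Of 6 mesothelial markers (238 to 346 and 259 to 497 CPM) 2 were called higher, Upk1b and Krt19. Among the others Msln was below 0 (-0.18, edgeR adjusted p = 0.795). Of 4 mast cell markers (30.5 to 46.3 and 46.6 to 62.7 CPM) 2 were called higher. The other mast cell markers, Kit (-1.24 ± 0.33, all KIKO mice below all WT mice, edgeR adjusted p = 0.0942) and Mcpt4 (-0.39 ± 0.24, adjusted p = 0.445), had log2 fold changes below 0. None of the markers of adipocytes, fibroblasts, endothelial cells and macrophages was at 0 throughout. Which of these cells held the Lifr and Osmr RNA is not given by bulk libraries, and the part of cell composition in their values was not tested.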

How the data were processed

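Per the labels, libraries were made with a digital mRNA-seq service and sequenced single-end; the study's methods name another kit and instrument. The submitters' notes name Trimmomatic, HISAT2, DESeq2 and GRCm38; the annotation release is not given in the sources used here. The authors deposited raw counts per Ensembl gene and log2 values of scaled counts plus 1, which the file values fit with 1 factor per library. Counts were fitted with edgeR 4.0.16 (TMM, filterByExpr, quasi-likelihood test, genotype only, 4 against 4) and Benjamini-Hochberg adjustment over 11080 genes. Each standard error was derived from the fold change and its F value. Gene positions came from GENCODE M21.

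Alternatives were DESeq2 1.42.0 and its size factors, no filter, limma-voom and limma-trend (limma 3.58.1; the deposited log2 values, pseudocount 1 or 8), a replicate block, a transcript length and GC correction, and leaving out each mouse. The fits were tested on simulated data. Intervals and floors of counts cover counting error only. Members, lists and tests were chosen with earlier results of these data known. Named were the 7 members, called genes of each list or otherwise the 3 with the smallest p, and the 3 genes most like Lifr; some genes this rule names, and the check of the altered gene, are not reported here.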

Additional observations from a re-analysis of the deposited data

Results flagged for a closer look

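Of 48 groups of 4 mice checked in 24 genes, 6 had a mouse whose gap to the nearest other mouse exceeded Dixon's 95% critical share of the range of its group, where chance gives about 1 in 20. In 4 of them this was KIKO mouse 2: Lifr at 101.9 CPM against 69.97 to 70.01 CPM in the other KIKO mice, Osmr at 7.59 against 10.6 to 11.1 CPM, Prkacb at 98.7 against 77.4 to 77.6 CPM and Adamts12 at 48.4 against 29.5 to 31.3 CPM. Prkacb and Adamts12 were named for their likeness to Lifr, so they are not separate from it. Osmr in WT mouse 2 stood at 11.5 CPM, below 17.1 to 17.4 CPM in the other WT mice. Stat3 in WT mouse 1 stood at 262.8 CPM, above 196.1 to 205.9 CPM.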

How the results depend on the processing

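The number of genes called between genotypes, 75, moved to 382 without a filter on low counts, 281 with DESeq2, 40 with limma-voom, 45 with limma-trend at a pseudocount of 1, and 30 after correction for transcript length and GC content, and ranged from 0 to 654 when each mouse was left out in turn. With the replicate number as a block it was 0, with 1427 genes at an unadjusted p under 0.05; same-numbered mice did not deviate together (r from -0.155 to 0.028), so the numbers were not taken as pairs. Of the 7 gp130 family genes, the number called was 1 without a filter and with DESeq2 (Lifr in both), and 0 to 1 without single mice. Of the 65 tested genes of the pathway lists, 2 were called, where 0.677% of all tested genes were. The number was 6 of 86 without a filter (2.11% of all tested genes) and 4 of 42 with DESeq2 (4.56%). It was 1 of 65 with limma-trend at a pseudocount of 8 (0.505%). It was 0 of 65 with limma-voom, limma-trend at a pseudocount of 1, the block and the length and GC correction. Without single mice it ranged from 0 to 3, with 3 of 66 without WT mouse 3 (5.81%). Of 304 log2 fold changes of 19 named genes, 268 kept their direction and side of the threshold, 23 lost and 3 gained their call, and 10 changed sign, in 5 genes without a call. Il11ra1 turned with DESeq2 (0.00081) and limma-trend (0.0045 and 0.0044) and Il6st after the length and GC correction (0.11). Without single mice Il11ra1 ranged from -0.069 to 0.056 (above 0 without WT mouse 2, KIKO mouse 2 or KIKO mouse 3), Stat3 from -0.047 to 0.18 (below 0 without KIKO mouse 2), Socs3 from -0.40 to 0.12 (above 0 without WT mouse 1) and Ebi3 from -0.0083 to 0.47 (below 0 without KIKO mouse 4). The cause of these moves was not tested. The place of Lifr in the order of levels did not move, and 2 of its 3 nearest genes remained with a lower limit of 5 CPM and without WT mouse 3. Depth limits Osmr, Socs3 and the cytokines, with 55 or fewer counts per library.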

Other observations

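Outside the rule for named genes, and chosen after their values were seen, 2 further STAT3 target genes had no overlap between genotypes, as had 8.45% of all tested genes (4.56% with all KIKO mice lower). Vegfa, a growth factor for endothelial cells, stood at 131.2, 69.96, 86.3 and 118.5 CPM in WT and at 52.8, 60.3, 69.7 and 59.8 CPM in KIKO, with a log2 fold change of -0.74 ± 0.18 (SE, edgeR adjusted p = 0.0709); it passed with DESeq2, without a filter on low counts and without WT mouse 3. Bcl2l1, an inhibitor of apoptosis, stood at 60.3 to 107.5 CPM in WT and 28.8 to 59.1 CPM in KIKO (-0.62 ± 0.22, edgeR adjusted p = 0.173), and passed without a filter. Lrg1, a secreted acute-phase glycoprotein, stood at 656 to 817 CPM in WT and at 798 to 1862 CPM in KIKO, with a log2 fold change of 0.71 ± 0.21 (edgeR adjusted p = 0.121), and passed with DESeq2 and without a filter.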
